A study of Capra hircus with 4 samples.

Results

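The genes described here encode the subunits of the mitochondrial respiratory chain and ATP synthase that are made from nuclear DNA. After the prefix gene- was removed, features were taken whose names start with NDUFA, NDUFB, NDUFC, NDUFS, NDUFV, UQCR, COX4, COX5, COX6, COX7, COX8 or ATP5, or equal SDHA, SDHB, SDHC, SDHD or CYC1, and names starting with NDUFAF, which are assembly factors of complex I, were left out. This gave 60 of the 28944 features counted in nuclei of goat ovary. They hold 37 genes of complex I, of which 7 are core subunits that bind the cofactors of electron transfer and 30 are accessory subunits, the 4 genes of complex II, 15 genes of complex V, and NDUFA4 with its relative NDUFA4L2. The remaining pair, ATP5S and ATP5SL, met the rule by name, but their present names are DMAC2L and DMAC2 and their products are not subunits of ATP synthase. No feature name started with UQCR or with COX4 to COX8 or equalled CYC1, so complex III and nearly all of complex IV were not analysed here.

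The respiratory chain passes electrons from NADH at complex I, or from succinate at complex II, through coenzyme Q, complex III and cytochrome c to oxygen at complex IV, and the proton gradient that builds up drives ATP synthesis at complex V. Most subunits are made from nuclear genes and imported, while a small set is encoded by mitochondrial DNA, so that each complex other than complex II draws on both genomes. Steroid-producing cells of the ovary also begin steroid synthesis inside mitochondria.

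Left ovaries of 2 Nubian and 2 Du'an goats, all about 3 years old, went into single-nucleus RNA sequencing in droplets (10x Genomics 3′ chemistry), 1 library per goat, in which every captured transcript carries a unique molecular identifier, or UMI. The Nubian goats were labelled with litters of 3 kids or more and the Du'an goats with litters of 1 kid. All goats had received a vaginal insert with 300 mg of progesterone for 17 days to synchronise estrus, and none to induce superovulation, so both breeds share this treatment. Breed, litter size and whatever else the goats of a breed share cannot be told apart. Nuclei hold only part of a cell's RNA, and the values below are RNA levels in preparations of nuclei, not amounts of protein or rates of respiration.

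The matrices held 48332 nuclei, of which 44734 were kept. These passed the limits on UMIs, genes and mitochondrially encoded UMIs and were not marked as doublets. Libraries kept 8723 to 15848 nuclei and 29800057 to 54540864 UMIs each. The library medians ran from 1755 to 3292 UMIs per nucleus. The doublet caller marked 151 nuclei, or 0.312%, and at that rate it has not worked. Libraries shared 54 to 131 barcodes a pair, which sum to 502 shared barcodes over all pairs. The nuclei fell into 20 clusters, and 7615 kept nuclei with 12.9% of the kept UMIs had no name. Clusters were named from marker genes as 14 classes, each called like a cell type, and all members, marker genes and ribosomal protein genes were left out of the genes that made the clusters. Members held 200186 UMIs, or 0.120% of all kept UMIs. The depth of a member in a class was therefore small, and intervals and limits from counts cover counting error only. The Du'an 2 library also stood apart in mitochondrially encoded genes: ATP6 and COX2 were each at 2.03 CPM (UMIs scaled to the same total in every sum) there and at 1362 to 2591 CPM and 683 to 1369 CPM in the other libraries, and ATP8 was at 0 there and at 9.11 to 16.2 CPM in the others, while no member was as far from the other libraries.

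Counts were summed per goat and class, and each class was compared with the average over all other classes by edgeR's quasi-likelihood test, blocked by goat, with p-values adjusted by Benjamini and Hochberg over all 14816 genes tested. An adjusted p under 0.05 was called. Sums of at least 20 nuclei in at least 2 goats gave 13 classes and 49 sums, and the fibroblast-like class, with that many nuclei in Nubian 1 alone, was left out. Of the members, 59 passed the filter on low counts, and NDUFA4L2, with 46 UMIs in all kept nuclei, did not. Over classes, 130 member results were called higher and 55 lower out of 767. Of all genes, 8.38% to 32.6% were called higher and 3.96% to 21.7% lower, depending on the class. The member calls were uneven across classes, and the plot of calls by class shows that most of the higher ones lay in the macrophage-like and T or natural killer-like classes.

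**Figure D1:**
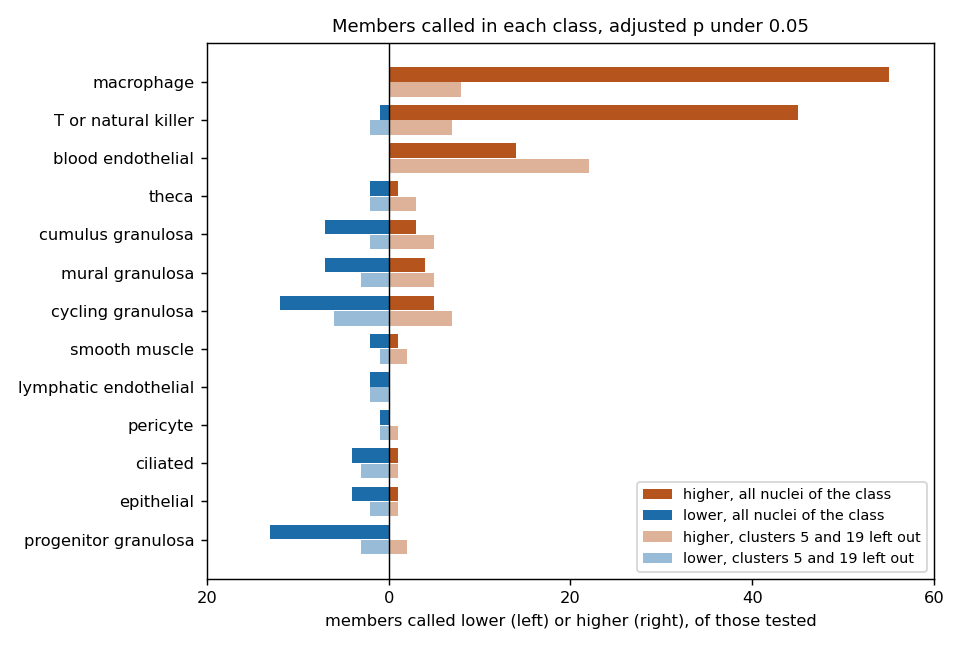
Number of members called higher (right) or lower (left) in each of 13 classes, with all nuclei of a class (dark bars) and with macrophage-like cluster 5 and T or natural killer-like cluster 19 left out (pale bars). The macrophage-like bar falls from 55 to 8 members and the T or natural killer-like bar from 45 to 7. Of all genes, 32.6% and 32.0% were called higher in these classes, and 24.3% and 26.2% without these clusters.

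Among the named classes, the summed level of the members was highest in the macrophage-like class. It was 2553, 1895, 1985 and 4633 CPM there in Du'an 1, Du'an 2, Nubian 1 and Nubian 2, with a mean of 2767 CPM ± 1278 (SD, n = 4). Unnamed cluster 4, which is not among these classes, had a mean of 5056 CPM. In the T or natural killer-like class it was 1015, 1237, 2000 and 3509 CPM in the same goats, a mean of 1940 CPM ± 1128 (SD, n = 4). Nubian 2 was highest in both, and the goats of these 2 classes overlapped. The other means lay between 852 CPM ± 52.0 (SD, n = 4) in the progenitor granulosa-like class and 1270.2 CPM ± 466 (SD, n = 4) in the blood endothelial-like class. Between these, the theca-like class was at 1198 ± 197, cumulus granulosa-like at 1178 ± 74.9, mural granulosa-like at 1163 ± 94.0, cycling granulosa-like at 1131 ± 74.3 and smooth muscle-like at 1022 ± 143 CPM, with n = 3 for mural and 4 for the rest. Lymphatic endothelial-like, pericyte-like, ciliated-like and epithelial-like sums were at 924 ± 169, 922 ± 71.1, 889 ± 59.4 (n = 2) and 881 ± 75.4 CPM. Neighbours in this order differed by less than the larger of their SDs, and no test was run on the sum. In such relative levels, fewer transcripts of these genes and more RNA of other genes in a nucleus cannot be told apart.

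A single gene held much of this sum. NDUFS4, an accessory subunit of complex I needed for its final assembly, had 46519 of the 200186 member UMIs, or 23.2%, and at least 1 UMI in 41.8% of kept nuclei. SDHB, the iron-sulfur subunit of complex II, followed with 6.67% and NDUFV2, a core subunit of complex I, with 3.72%. These shares depend on how each gene's transcripts are counted and are not a ranking of expression. They cover kept nuclei only. Over all nuclei in the matrices NDUFS4 had 61559 UMIs and ATP5G3 20413, against 46519 and 3502 in kept nuclei. Without NDUFS4 the mural granulosa-like mean was 736 CPM ± 63.8 (SD, n = 3) and the cumulus granulosa-like mean 790 CPM ± 19.02 (SD, n = 4), next to 851 CPM ± 140 in the smooth muscle-like and 678 CPM ± 55.0 in the progenitor granulosa-like class. The place of the granulosa-like classes above smooth muscle in the full sum thus rested on NDUFS4.

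**Figure D2:**
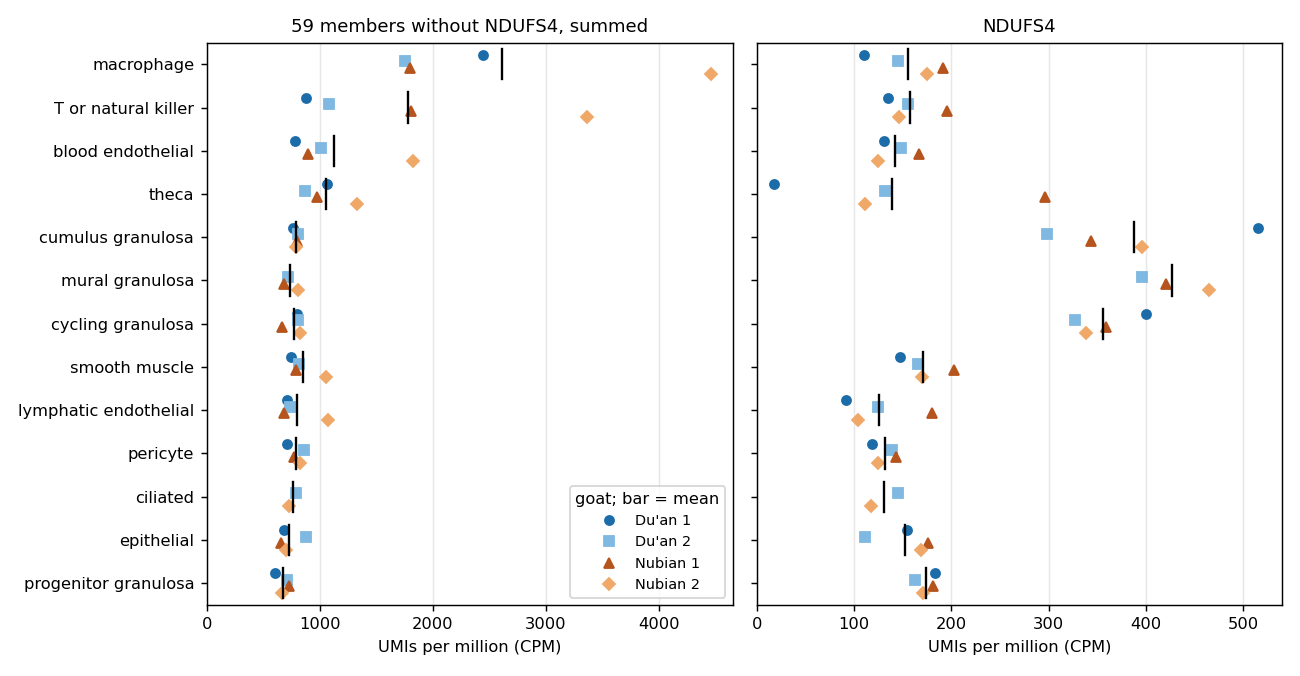
Level in CPM of the 59 members without NDUFS4 (left) and of NDUFS4 (right) in each class, with a symbol per goat and a bar at the mean. The left panel is highest in macrophage-like sums, at 1749 to 4458 CPM, and the right panel in mural, cumulus and cycling granulosa-like sums, at 299 to 515 CPM.

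NDUFS4 was higher in 3 granulosa-like classes than in any other. In mural granulosa-like sums it was at 396, 421 and 464 CPM in Du'an 2, Nubian 1 and Nubian 2, and was higher by 1.505 ± 0.17 (SE) on the log2 scale (edgeR, adjusted p = 7.61e-10). In cumulus granulosa-like sums it was at 515, 299, 343 and 395 CPM (log2 fold change 1.21 ± 0.15, adjusted p = 1.33e-08), and in cycling granulosa-like sums at 399.9, 328, 359 and 338 CPM (1.09 ± 0.15, adjusted p = 1.45e-07). All 11 of these sums were above all sums of the other classes, where NDUFS4 ran from 17.4 to 296 CPM, and the highest of those, in theca-like sums of Nubian 1, came from 51 nuclei. Progenitor granulosa-like sums did not share the high level and held 183, 162, 181 and 171 CPM (log2 fold change 0.04, adjusted p = 0.986). Lower calls were made in pericyte-like (-0.70), theca-like (-0.65) and lymphatic endothelial-like sums (-0.56), in 12, 8 and 12 of 16 alternatives, and the last turned to 0.29 when classes were taken from marker UMIs of each nucleus. Under 16 alternatives the mural, cumulus and cycling log2 fold changes stayed between 0.81 and 1.64 and were called each time.

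The granulosa-like classes were made of different subclusters in different goats, so NDUFS4 was also followed by subcluster. Mural subcluster 5 held mostly nuclei of Nubian 1 and was at 421 CPM there, subcluster 8 mostly Du'an 2 at 396 CPM, and subcluster 11 almost only Nubian 2 at 469 CPM, while Du'an 1 had no mural nuclei. Within cumulus subcluster 3 the values were 555, 419, 498 and 411 CPM in Du'an 1, Du'an 2, Nubian 1 and Nubian 2, and within subcluster 2 they were 341, 261, 246 and 312 CPM in the same goats. Cumulus subcluster 6, mostly of Nubian 1, held 336 CPM in that goat and 199 to 360.0 CPM in the others. Cycling subcluster 7 was at 300.3 to 399.9 CPM in 4 goats and cycling subcluster 9, mostly of Nubian 1, at 364 CPM there. Progenitor subcluster 1 held 162 to 197 CPM in the same 4 goats, below every cumulus subcluster in the goat concerned. The lowest granulosa value, 68.5 CPM, was in progenitor subcluster 10, which came from Nubian 1 alone.

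In the macrophage-like class 55 of 59 members were called higher and 0 lower, where 32.6% of all genes tested were called higher and 19.8% lower. The median member log2 fold change was 1.64, against 0.09 for all genes. All 15 complex V genes, 34 of 37 complex I genes and all 4 complex II genes were called higher. NDUFS4, NDUFS1, NDUFA11 and ATP5SL were the 4 without a call. The counts ran from 47 to 57 over 14 other settings that tested 58 to 60 members, and were 43 of 48 members with nuclei thinned to 1000 UMIs. The shares of all genes called under these settings are not given. Thinning here and below used only the 34406 kept nuclei of at least 1000 UMIs and left out the shallower ones. The count was 8 of 59 with clusters 5 and 19, which are described further on, left out.

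ATP5G3, one of the genes for the proton-carrying c subunit of ATP synthase, had the largest member difference in this class. It was at 237, 66.7, 102 and 313 CPM in Du'an 1, Du'an 2, Nubian 1 and Nubian 2, and was higher by 3.64 ± 0.21 (SE) on the log2 scale (adjusted p = 2.67e-19). NDUFB11, an accessory subunit in the membrane arm of complex I, held 51.7, 30.5, 50.2 and 149 CPM and was higher by 3.19 ± 0.21 (adjusted p = 1.57e-17). Du'an 2 was lowest and Nubian 2 highest for both genes. The catalytic beta subunit gene ATP5B was at 106, 69.2, 63.1 and 201 CPM (2.11 ± 0.22, adjusted p = 1.99e-11), and its partner alpha subunit ATP5A1 at 44.7, 38.3, 40.6 and 104 CPM (1.01 ± 0.19, adjusted p = 1.85e-05). Over 16 alternatives the ATP5A1 value ran from -0.13 to 1.15, with a call in 15. For both genes Nubian 2 was highest. In nuclei thinned to 1000 UMIs, ATP5B had a UMI in 6.11% to 17.7% of macrophage-like nuclei per goat and in 4.21% to 9.46% of T or natural killer-like nuclei. Without thinning, the same nuclei had one in 11.5% to 38.7% and 8.60% to 22.0%. Nuclei below 1000 UMIs are in none of these shares, and macrophage-like cluster 5 had a median of 824 UMIs. No class is known to lack ATP5B, so these shares have no background from a negative class.

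In the T or natural killer-like class 45 of 59 members were called higher and 1 lower, beside 32.0% and 21.7% of all genes. The median member log2 fold change was 1.21, against 0.07 for all genes, and 14 of 15 complex V genes, 27 of 37 complex I genes and 2 of 4 complex II genes were higher. NDUFB11 had the largest member difference here, with 20.1, 19.1, 49.8 and 99.3 CPM in Du'an 1, Du'an 2, Nubian 1 and Nubian 2 (log2 fold change 2.56 ± 0.22, adjusted p = 1.94e-13). ATP5I, a small subunit of the membrane part of ATP synthase, was at 14.4, 15.2, 15.5 and 63.6 CPM (2.54 ± 0.32, adjusted p = 6.66e-09). Both genes were high in Nubian 2, and for ATP5I the other goats were almost level. SDHB was the member called lower, at 40.3, 42.5, 53.3 and 60.6 CPM (-0.48 ± 0.15, adjusted p = 0.00568). Without Nubian 2, 31 members were called higher and SDHB lower, and the share of all genes called then is not given.

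Both immune classes joined clusters that differed strongly in these genes. The macrophage-like class was made of cluster 5, led by the complement genes C1QC and C1QA with a median of 824 UMIs per nucleus, and of cluster 14, led by VSIG4 with a median of 3310.5 UMIs. In all, the members summed to 7997, 6683, 6486 and 7557 CPM in cluster 5 of Du'an 1, Du'an 2, Nubian 1 and Nubian 2, and to 934, 1153, 1077 and 1134 CPM in cluster 14 of the same goats. The goats did not overlap, and the 59 members other than NDUFS4 were 9.62, 6.51, 7.22 and 7.43 times as high in cluster 5. Cluster 5 supplied 57.4%, 25.4%, 27.9% and 76.2% of the macrophage-like nuclei in these goats, so Nubian 2, which had the highest class level, also had the largest share of cluster 5. In the T or natural killer-like class, cluster 19, led by CTSW, CCL5 and GNLY, held 6128, 5699 and 6314 CPM in Du'an 2, Nubian 1 and Nubian 2, and cluster 16 held 779, 1029, 1119 and 1076 CPM in the 4 goats. Cluster 19 made up 2.42%, 2.59%, 12.2% and 32.9% of the T or natural killer-like nuclei, with 3 nuclei in Du'an 1.

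Gene by gene, 51 of 60 members were higher in cluster 5 than in cluster 14 without overlap of the goats, where 14.2% of all tested genes were, and 52 of 60 in cluster 19 over cluster 16, where 17.6% of all genes were. ATP5G3 ran from 385 to 974 CPM in cluster 5 and from 1.29 to 25.3 CPM in cluster 14, and NDUFB11 from 158 to 269 CPM and from 4.74 to 10.8 CPM. In contrast, NDUFS4 was at 103 to 201 CPM in cluster 5 and 113 to 199 CPM in cluster 14, and at 94.5 to 107 CPM in cluster 19 against 158 to 216 CPM in cluster 16 of the same 3 goats. NDUFS1, NDUFA10, NDUFV2 and ATP5SL also overlapped in range between the clusters of both classes. SDHB was 140.0 to 174 CPM in cluster 5 and 91.2 to 122 CPM in cluster 14, a smaller step than for most members.

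The level of ribosomal protein transcripts moved with these differences. Ribosomal protein genes took 20.1, 25.1, 13.6 and 20.8 times as large a share of UMIs in cluster 5 as in cluster 14 in the 4 goats, and 18.6, 17.2 and 20.7 times in cluster 19 as in cluster 16 in 3 goats. Summed granulosa markers, a measure of RNA from the most common cell type, were at 719 to 1636 CPM in cluster 5, 400 to 1564 CPM in cluster 14, 912 to 1560 CPM in cluster 16 and 346 to 630.2 CPM in cluster 19 of summed level, so they overlapped between clusters 5 and 14 and were lowest in cluster 19. In cluster 5 the 6 macrophage markers summed to 4194 to 10445 CPM and in cluster 14 to 1473 to 1915 CPM. Likewise the 9 T or natural killer markers summed to 8345 to 10955 CPM in cluster 19 and 7628 to 8937 CPM in cluster 16. Depth did not move alike in both classes, since cluster 5 was shallower than cluster 14 and cluster 19, with a median of 3858 UMIs, deeper than cluster 16, with 2145. The part of ribosomal transcripts and depth in these differences was not tested.

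**Figure D3:**
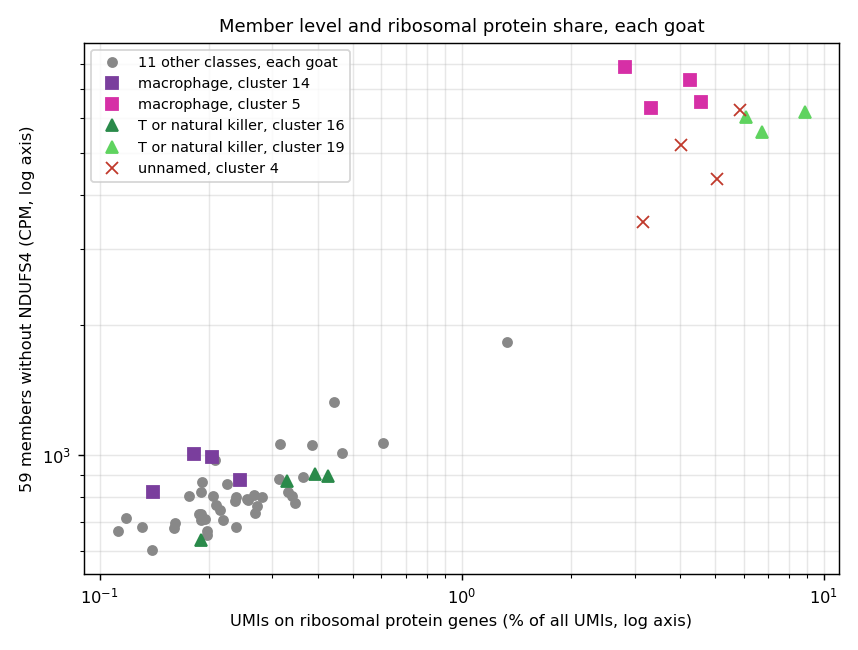
Level of the 59 members without NDUFS4 in CPM against the percent of UMIs on ribosomal protein genes, both on log axes, with a point per goat for 11 classes, for the clusters of the immune classes and for unnamed cluster 4. Clusters 5, 19 and 4 lie at ribosomal shares of 2.82% to 8.84%, apart from clusters 14 and 16 at 0.140% to 0.426%.

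Leaving out clusters 5 and 19, an alternative chosen after the data were seen, took the macrophage-like count from 55 to 8 members higher, beside 24.3% of all genes, and the T or natural killer-like count from 45 to 7 higher and 2 lower, beside 26.2% of all genes higher. The macrophage-like members that were still called were SDHB (0.75), ATP5F1 (1.04), NDUFA5 (0.83), NDUFA13 (1.13), NDUFS6 (0.70), SDHA (0.62), NDUFV2 (0.44) and NDUFS8 (0.78), each as a log2 fold change. In the T or natural killer-like class NDUFB6 (1.05), NDUFA1 (0.89) and NDUFB4 (0.87) had the largest log2 fold changes among the 7, and SDHB (-0.68) and ATP5SL (-0.90) were lower. The median member log2 fold change was then 0.15 and 0.21. The 8 and 7 of 59 members lie below the shares of all genes called higher.

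Over the 49 sums, the log2 level of the members and the ribosomal protein share had a Pearson's r of 0.846 and a Spearman's rho of 0.611. Within libraries r was 0.768, 0.674, 0.805 and 0.911 over 11 to 13 classes. The share of mitochondrially encoded UMIs and the median depth had an r of 0.318 and -0.203 with the members. Over 50 sums that include fibroblast-like nuclei, the 59 members had an r of 0.912 with the ribosomal share and NDUFS4 an r of -0.258. These are descriptions, since sums share libraries and classes. The genes outside the list with the most similar level across the 49 sums, out of 11596 compared, were RPL6 (r = 0.882), PPIA (0.862), LOC102176290 (0.859), RPL7 (0.852) and FCER1G (0.833). RPL6 and RPL7 are ribosomal proteins, PPIA is a peptidyl-prolyl isomerase and FCER1G is a signalling subunit of myeloid and natural killer cells. For 32 members with at least 2000 UMIs, each goat's mean was first taken out, unlike for the r values above. The median r of 496 pairs was then 0.304, with 0.401 between complex V genes and 0.206 between complex I genes. The mean r of NDUFS4 with the rest was 0.001.

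Complex I members outside the immune classes were mostly uncalled, as the plot of log2 fold changes by member shows. NDUFS1, the large iron-sulfur core subunit, was even across mural granulosa-like sums at 39.6, 38.3 and 38.4 CPM in Du'an 2, Nubian 1 and Nubian 2 (0.49 ± 0.15, adjusted p = 0.0124) and was not called in the macrophage-like class, at 31.0 to 54.1 CPM (0.21, adjusted p = 0.286). NDUFV1, the subunit that binds NADH, was higher in macrophage-like sums (1.99 ± 0.37, adjusted p = 1.18e-05) at 4.70 to 30.2 CPM and in blood endothelial-like sums (1.07 ± 0.42, adjusted p = 0.0483) at 0.758 to 18.4 CPM, with Nubian 2 the highest in both. NDUFV2 was lower in theca-like sums at 69.8, 16.9, 24.2 and 44.7 CPM in Du'an 1, Du'an 2, Nubian 1 and Nubian 2 (-0.86 ± 0.25, adjusted p = 0.0107), a call on 24 UMIs. That call was made under 9 of 16 alternatives, with values from -1.07 to -0.33.

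**Figure D4:**
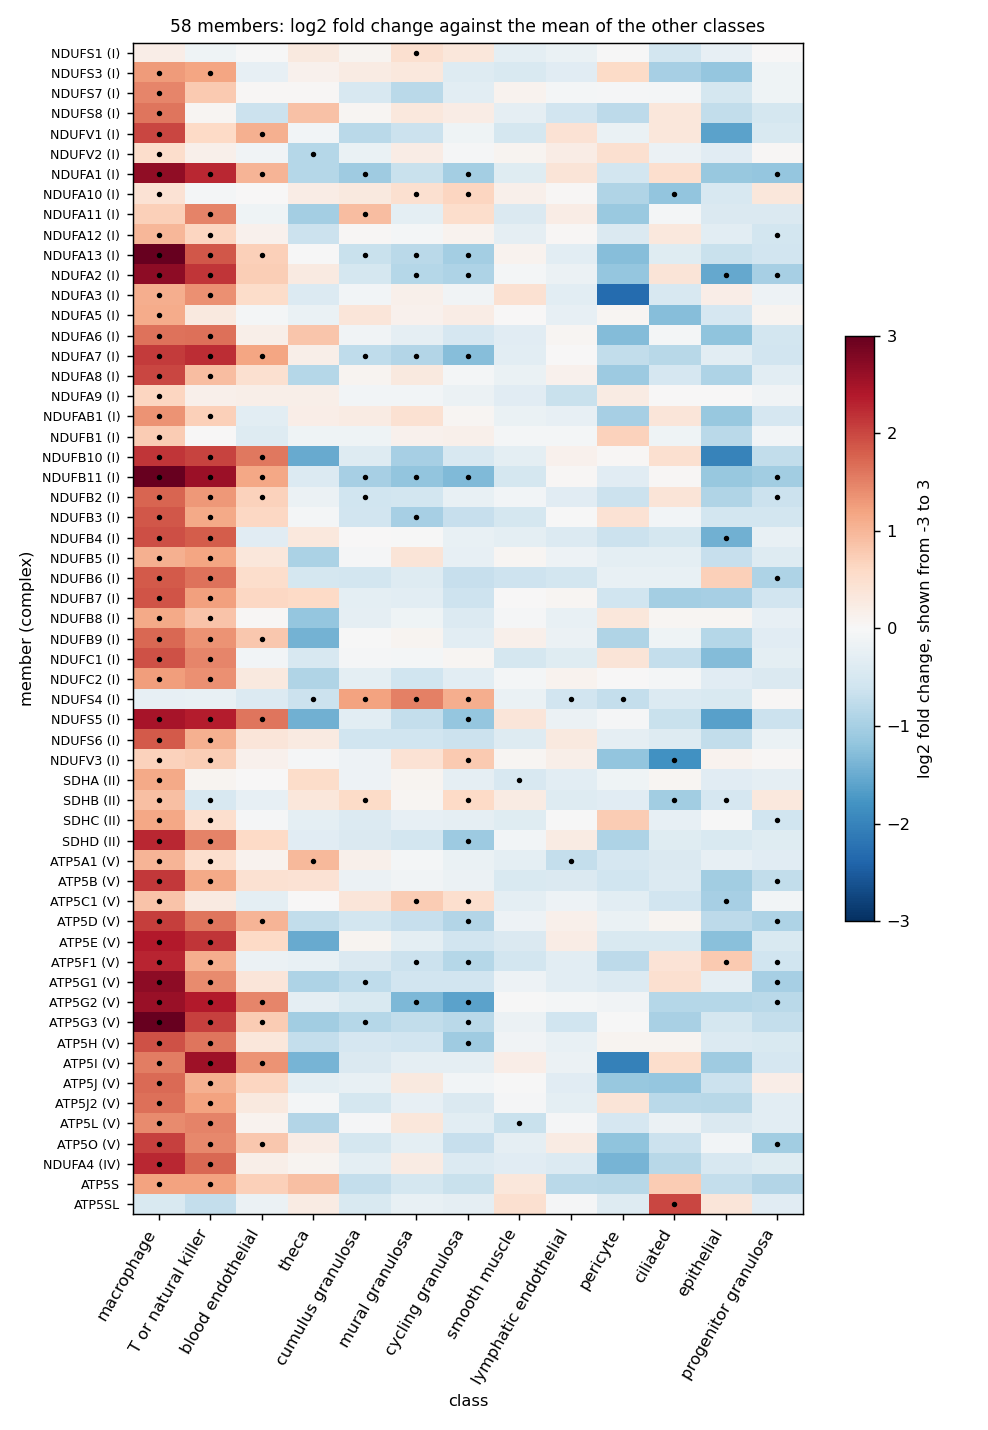
Log2 fold change of 58 of the 59 tested members (lines, with the complex in brackets) in each class against the mean of the other classes, in red where higher and blue where lower, with a dot on each called result. Dots fill most of the macrophage-like and T or natural killer-like columns, and NDUFS4 has its red cells in the cumulus, mural and cycling granulosa-like columns, at 1.21, 1.505 and 1.09.

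Blood endothelial-like sums had 14 members higher and 0 lower, beside 21.3% and 9.18% of all genes, so the members were called about as often as other genes. ATP5G2, another c subunit gene, was at 40.2, 62.5, 57.8 and 154 CPM in Du'an 1, Du'an 2, Nubian 1 and Nubian 2 (1.46 ± 0.23, adjusted p = 1.20e-06). The complex I subunits NDUFS5 and NDUFB10 had the largest log2 fold changes, 1.60 ± 0.32 (adjusted p = 8.05e-05) and 1.59 ± 0.35 (adjusted p = 0.000315). For NDUFS5 the goats were at 13.6, 19.6, 19.04 and 73.6 CPM, so the mean rested on Nubian 2, in which ribosomal protein genes also took 1.34% of UMIs against 0.345% to 0.467% in the others. Without Nubian 2, 8 members were called higher, and with nuclei limited to 5% of mitochondrially encoded UMIs 2 were. The shares of all genes called under these settings are not given, so the counts have no background to be read against. With clusters 5 and 19 left out 22 of 59 members were called higher, with a median of 0.53, beside 23.1% of all genes.

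Blood and lymphatic endothelial-like sums were also set against each other. Of 59 members 4 were higher in blood endothelial-like sums and 0 lower, beside 15.0% of all genes called in either direction. ATP5G2 was higher by 1.40 ± 0.36 (adjusted p = 0.00329), against 19.5, 25.3, 20.8 and 44.7 CPM in lymphatic endothelial-like sums. NDUFS5 (1.63), ATP5G3 (1.27) and NDUFB2 (0.94) were the others. In the lymphatic endothelial-like class itself, 0 members were higher and 2 lower, beside 18.3% and 8.35% of all genes. Next to NDUFS4 this was ATP5A1, at 10.4, 18.98, 15.4 and 32.3 CPM (-0.72 ± 0.24, adjusted p = 0.0221).

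Theca-like nuclei, which make androgen, had 1 member higher and 2 lower, beside 8.38% and 8.32% of all genes. ATP5A1 was higher at 105, 59.1, 48.4 and 85.0 CPM in Du'an 1, Du'an 2, Nubian 1 and Nubian 2 (0.98 ± 0.27, adjusted p = 0.00830). Against mural granulosa-like sums, 1 member was higher and 2 lower, beside 17.0% of all genes: ATP5A1 differed by 0.95 ± 0.33 (adjusted p = 0.0409), NDUFS4 by -1.98 ± 0.27 (adjusted p = 2.96e-07) and NDUFV2 by -1.002 ± 0.28 (adjusted p = 0.00904). The theca-like sums were small, with 29 to 107 nuclei and 57311 to 355269 UMIs, and 3 counts stand for 52.3 CPM in Du'an 1. NDUFS4 was at 17.4 CPM there, below that limit, and at 132, 296 and 112 CPM in the other goats.

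In granulosa-like classes most called members other than NDUFS4 were lower. The shares called lower were close to those of all genes except in progenitor sums. Members were called higher less often than all genes in each of these classes. Mural granulosa-like sums had 4 members higher and 7 lower (17.0% and 14.4% of all genes), cumulus granulosa-like sums 3 and 7 (17.9% and 15.0%), and cycling granulosa-like sums 5 and 12 (20.2% and 16.1%). Progenitor granulosa-like sums had 0 higher and 13 lower, beside 18.1% and 11.1%, with a median of -0.43. ATP5G2 was low in cycling granulosa-like sums at 6.42, 10.7, 9.92 and 10.5 CPM (-1.61 ± 0.31, adjusted p = 3.98e-05) and in mural sums at 9.76, 11.3 and 12.7 CPM (-1.35 ± 0.31, adjusted p = 0.000507). NDUFB11 was lower in all 4 granulosa-like classes, between -1.33 in cycling and -0.999 in cumulus sums. The mean of the other classes includes the immune classes, and without clusters 5 and 19 the lower calls numbered 3, 2, 6 and 3 in mural, cumulus, cycling and progenitor sums, beside 14.2%, 14.6%, 15.6% and 10.4% of all genes. With DESeq2 they numbered 17, 14, 16 and 18 in the same order, and with no factors beyond library totals 15, 7, 13 and 16. The shares of all genes called lower under these settings are not given, so these counts have no background to be read against. With nuclei thinned to 1000 UMIs the medians were 0.18, 0.20, -0.10 and -0.13 in the same order. Then 0 progenitor members were called lower, again without a share of all genes beside it.

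A few complex I and complex V genes went the other way in granulosa-like nuclei. NDUFA11, an accessory subunit, was at 14.01, 13.4, 13.2 and 16.9 CPM in cumulus granulosa-like sums (0.92 ± 0.24, adjusted p = 0.00229) and at 5.29, 5.61 and 4.97 CPM in mural ones. It was the 1 member called between these classes, with 0 higher and 1 lower in mural sums (-1.11 ± 0.35, adjusted p = 0.0242), beside 14.5% of all genes. ATP5C1, the gamma subunit that forms the turning shaft of ATP synthase, was higher in mural sums at 40.1, 40.8 and 57.4 CPM (0.76 ± 0.20, adjusted p = 0.00184). NDUFV3 was higher in cycling sums at 28.4, 21.8, 24.0 and 31.1 CPM (0.78 ± 0.23, adjusted p = 0.00581). Cycling against the mean of mural and cumulus sums called 0 members by edgeR, 1 at an unadjusted p under 0.05, beside 8.06% of all genes. NDUFA1 (-1.16) and ATP5O, the stalk subunit known as OSCP (-1.05), were the lowest members in progenitor sums, at 3.72 to 6.32 CPM and 4.51 to 6.59 CPM.

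Complex II takes electrons from succinate and is encoded wholly by nuclear genes. SDHB was higher in macrophage-like sums at 118, 129, 99.4 and 140.2 CPM in Du'an 1, Du'an 2, Nubian 1 and Nubian 2 (0.91 ± 0.13, adjusted p = 4.04e-08), in cycling granulosa-like sums at 114, 107, 58.8 and 126 CPM (0.59 ± 0.13, adjusted p = 0.000183) and in cumulus granulosa-like sums at 111, 90.2, 84.7 and 116 CPM (0.57 ± 0.12, adjusted p = 0.000199). It was lower in ciliated-like (-1.05 ± 0.26, adjusted p = 0.00152) and epithelial-like sums (-0.51 ± 0.18, adjusted p = 0.0311) as well as in the T or natural killer-like class. The macrophage, cumulus, cycling and T or natural killer calls were made under all 16 alternatives, including the one without clusters 5 and 19, while the epithelial call was made under 6 of 16. SDHA, the flavoprotein subunit, was higher in macrophage-like sums at 82.3, 52.1, 59.9 and 79.1 CPM (1.14 ± 0.15, adjusted p = 6.96e-09) and lower in smooth muscle-like sums at 27.3, 21.0, 23.1 and 29.4 CPM (-0.48 ± 0.16, adjusted p = 0.0217). The macrophage-like and smooth muscle-like goats did not overlap. The membrane anchors SDHC and SDHD were higher in both immune classes, by 1.17 and 2.27 in macrophage-like and 0.51 and 1.48 in T or natural killer-like sums on the log2 scale.

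SDHC was lower in progenitor granulosa-like sums (-0.60 ± 0.19, adjusted p = 0.0143) and SDHD in cycling granulosa-like sums (-1.08 ± 0.30, adjusted p = 0.00353). Pericyte-like against smooth muscle-like sums called 1 member higher and 0 lower, beside 7.37% of all genes. This was SDHC, at 53.3, 34.7, 45.9 and 41.6 CPM in pericyte-like and 23.0, 20.4, 19.7 and 22.7 CPM in smooth muscle-like sums (1.03 ± 0.33, adjusted p = 0.0473). The plot of single members sets SDHB beside ATP5A1 and NDUFV2 and shows how widely small classes spread.

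**Figure D5:**
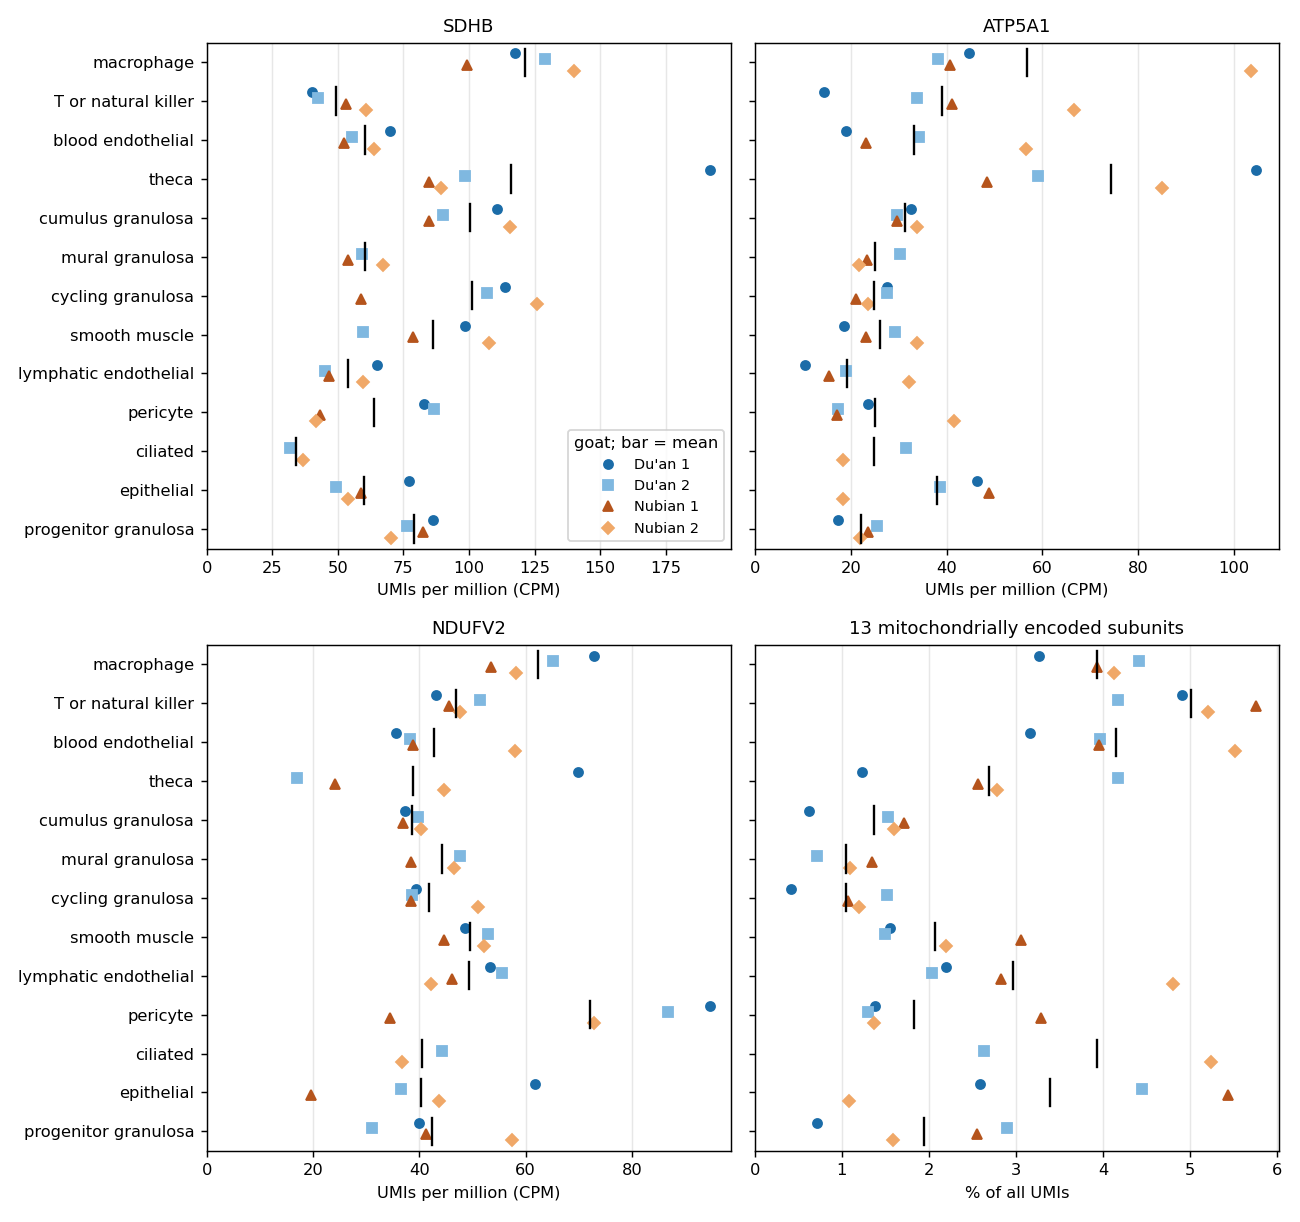
Level of SDHB, ATP5A1 and NDUFV2 in CPM and percent of UMIs on the 13 mitochondrially encoded subunits in each class, with a symbol per goat and a bar at the mean. In theca-like sums ATP5A1 spreads from 48.4 to 105 CPM and NDUFV2 from 16.9 to 69.8 CPM.

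In the remaining classes calls were few. Smooth muscle-like sums, with 1 member higher and 2 lower beside 18.1% and 4.65% of all genes, had ATP5L (-0.66 ± 0.25, adjusted p = 0.0486) next to SDHA as the lower members. Pericyte-like sums had 0 higher and 1 lower, NDUFS4, beside 8.38% and 3.96%. Epithelial-like sums had 1 higher and 4 lower, beside 15.1% and 9.83%, with a median member log2 fold change of -0.64. With classes taken from marker UMIs of each nucleus, that median turned to 0.70, with 14 of 58 members higher and 1 lower. The share of all genes called under that setting is not given, so the epithelial-like direction depended on the class rule. In the main epithelial-like sums ATP5F1, a peripheral stalk subunit of ATP synthase, was higher at 15.5, 66.7, 39.1 and 58.0 CPM in Du'an 1, Du'an 2, Nubian 1 and Nubian 2 (0.79 ± 0.27, adjusted p = 0.0234). NDUFA2 (-1.53) and NDUFB4 (-1.44) were called lower on 12 UMIs each, and NDUFA2 was at 0 in Du'an 1 and Nubian 1, where 3 counts stand for 46.4 and 29.3 CPM. Ciliated-like sums, from 2 goats, had 1 higher and 4 lower, beside 16.3% and 10.8%. ATP5SL was higher there at 28.4 and 16.1 CPM (1.99 ± 0.43, adjusted p = 0.000292), and NDUFV3 was lower (-1.81) on 4 UMIs.

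The c subunit ring of ATP synthase is made from identical proteins that come from ATP5G1, ATP5G2 and ATP5G3, now named ATP5MC1, ATP5MC2 and ATP5MC3, whose products differ in the targeting peptide that is removed on import. Because the coding parts are alike, reads could be split between them, and the shares are uncertain to that extent. ATP5G2 gave most c subunit UMIs in blood endothelial-like nuclei, 67.0% ± 4.89 (SD, n = 4) of 553 UMIs, and in T or natural killer-like nuclei, 63.3% ± 5.22 of 1201 UMIs. In cycling granulosa-like nuclei it gave 39.9% ± 8.15 of 252 UMIs and in mural nuclei 46.9% ± 2.29 (n = 3) of 784 UMIs. ATP5G3 had its highest mean share in macrophage-like nuclei, with 63.5%, 37.5%, 44.2% and 41.5% in Du'an 1, Du'an 2, Nubian 1 and Nubian 2 (exact 95% intervals 55.5% to 71.0%, 33.0% to 42.3%, 37.4% to 51.1% and 38.5% to 44.6%). In blood endothelial-like nuclei its goats were at 18.97% to 27.4%, below all macrophage-like goats. ATP5G1 was at 21.4% ± 7.12 in cycling granulosa-like and 8.44% ± 1.29 in T or natural killer-like nuclei.

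NDUFA4 is now counted as a subunit of complex IV, and NDUFA4L2 is its hypoxia-responsive relative. NDUFA4 was higher in macrophage-like sums at 58.8, 49.6, 52.4 and 184 CPM (2.27 ± 0.24, adjusted p = 6.85e-11) and in T or natural killer-like sums at 14.4, 32.3, 61.9 and 135 CPM (1.73 ± 0.26, adjusted p = 1.89e-07) in Du'an 1, Du'an 2, Nubian 1 and Nubian 2. NDUFA4L2 gave 0 of the 452 UMIs of this pair in macrophage-like nuclei, which allows a share of up to 0.664%. It gave 13.8% of 29 UMIs in fibroblast-like nuclei of Nubian 1. Over smooth muscle-like goats its share ran from 0% to 9.30%.

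Between breeds, 11 classes had sums in all 4 goats, and edgeR called 0 of 435 member results and 0% of 96156 gene results over all classes. DESeq2 called 6 members, all in the T or natural killer-like class, and the share of all genes it called there is not given. At an unadjusted p under 0.05 there were 41 members, or 9.43%, beside 4.06% of all genes. Of these, 28 of 54 lay in the T or natural killer-like class and all 28 were higher in Nubian goats, beside 9.65% of all genes there, with a median log2 difference of 1.302 and a smallest adjusted p of 0.149 by edgeR. NDUFS5 was at 8.63 and 13.8 CPM in the Du'an and 47.3 and 135 CPM in the Nubian goats (Nubian over Du'an 2.93 ± 0.64), and NDUFA2 at 8.63 and 12.5 against 40.4 and 79.4 CPM (2.42 ± 0.53, both adjusted p = 0.149). For both genes the Du'an 1 value is the level that 3 counts stand for, in a sum of 124 nuclei. The breeds did not overlap for these genes, but an exact two-sided permutation test of 2 against 2 cannot go below p = 0.333. The Nubian goats also had the larger shares of cluster 19. Without clusters 5 and 19, an alternative chosen after the data were seen, 27 members were tested in this class instead of 54. Of these 27, 0 had an unadjusted p under 0.05, beside 5.13% of all genes, and the median difference was 0.11. Members that passed the filter on low counts only with these clusters could not be called then. The part of cluster 19 in the breed difference was not tested.

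In the macrophage-like class 5 of 55 members had an unadjusted p under 0.05, all higher in Nubian goats, beside 5.94% of all genes, with a median of 0.55. Without clusters 5 and 19 only 27 members were tested, and 0 had such a p, beside 5.36% of all genes, with a median of 0.01. In smooth muscle-like sums 4 of 57 did, all higher in Nubian goats, beside 3.93% of all genes. NDUFA4 was the first of these at 10.5 and 10.9 CPM in Du'an and 19.8 and 23.1 CPM in Nubian goats (1.05 ± 0.26, adjusted p = 1.00). The cumulus, progenitor, lymphatic endothelial, epithelial, pericyte and theca-like classes had 0 members at that level, the blood endothelial-like class had 2 of 52, higher in Nubian goats, beside 2.27% of all genes, and the cycling granulosa-like class had 2 of 50, NDUFAB1 and NDUFA3, both lower in Nubian goats, beside 2.48%. With 2 goats a breed, differences of the size seen between goats of the same breed were not detectable.

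Other genes of the pathway were counted as whole lists. The 13 mitochondrially encoded subunits of complexes I, III, IV and V were all called higher in T or natural killer-like and blood endothelial-like sums, 10 in macrophage-like and 7 in ciliated-like sums, where 32.0%, 21.3%, 32.6% and 16.3% of all genes were. All 13 were lower in cumulus and cycling granulosa-like sums and 12 in mural ones, with medians of -0.94, -1.43 and -1.20, where 15.0%, 16.1% and 14.4% of all genes were. The near absence of ATP6, COX2 and ATP8 from the Du'an 2 library touches those genes in every class. These transcripts come from mitochondrial DNA, not from the nucleus, and their share of UMIs also served as a filter on nuclei. How much of them was carried along with the nuclei of each class was not tested, so these calls are not a measure of expression by cell type. Mural granulosa-like nuclei had 7 of 15 genes of the citric acid cycle higher and 0 lower, with IDH3A, a subunit of isocitrate dehydrogenase, at 176, 82.4 and 28.9 CPM in Du'an 2, Nubian 1 and Nubian 2 (2.33 ± 0.25, adjusted p = 2.47e-10), and OGDH (1.01 ± 0.16, adjusted p = 3.09e-06). Of all genes, 17.0% were higher there. The macrophage-like and T or natural killer-like classes also had 7 of 15 higher and 0 lower, beside 32.6% and 32.0% of all genes higher.

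Glycolysis genes had 13 of 14 tested members higher and 1 lower in macrophage-like sums, among them lactate dehydrogenase A, named LDH-A in the files (4.02), and GAPDH (3.67), and 9 of 14 higher in T or natural killer-like sums, beside 32.6% and 32.0% of all genes higher. In mural granulosa-like sums 5 were higher and 3 lower, beside 17.0% and 14.4% of all genes, with PFKM (3.11) and PFKP (-2.98), the muscle and platelet forms of phosphofructokinase, in opposite directions. Complex I assembly factors had 7 of 14 higher and 0 lower in cumulus granulosa-like sums, with ECSIT (1.498) first, beside 17.9% of all genes higher. In macrophage-like sums 6 were higher and 3 lower, close to the shares of all genes, 32.6% and 19.8%. Regulators of mitochondrial gene expression had at most 6 of 14 higher, in cycling granulosa-like sums, and at most 4 lower, in T or natural killer-like sums, beside 20.2% and 21.7% of all genes. Among them PPARGC1A was at 0 to 1.07 CPM in T or natural killer-like and macrophage-like sums, in each goat below the level that 3 counts stand for, and was high in epithelial-like (3.29) and ciliated-like sums (3.30). ESRRG, an orphan receptor that works with it, was likewise high in ciliated-like (5.47), epithelial-like (5.33) and smooth muscle-like sums (3.36). HIF1A, the oxygen-sensitive factor, was higher in mural (2.34), cycling (2.12) and cumulus granulosa-like sums (1.88), where NDUFS4 was higher as well, and its relative EPAS1 was high in blood endothelial-like sums (4.71). Of these lists, 4 of 11 coenzyme Q and cytochrome c genes were higher and 1 lower in cumulus granulosa-like sums, beside 17.9% and 15.0% of all genes, led by COQ6 (1.48). The lists for assembly of complexes II, III, IV and V held 2 to 4 tested genes each and at most 2 calls in a class.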

How the data were processed

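Nuclei of left ovaries of 4 goats were sequenced by the authors with 10x Genomics 3′ chemistry, 1 library per goat. Per the labels, the authors deposited raw UMI counts for every gene in each nucleus, from Cell Ranger 5.0.0 (the matrix headers name another software version) and worked on in Seurat. The goat assembly is given only by a number, so no coordinates or sequences are printed. Deposited tables of the authors' own cluster comparisons hold fold changes and p-values and were not used. Labels name each goat but say no more on replication. Goat was a block between classes. The spread behind those SEs and p-values was estimated for each gene over all classes together, with information shared between genes. They do not measure the spread of goats within the class named. They can therefore be too small for classes whose goats spread more, such as the macrophage-like and T or natural killer-like ones. P-values between breeds measure the spread between goats of the same breed.

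From the counts, nuclei beyond 2 SD of a library's UMIs or genes or above 20% mitochondrially encoded UMIs were left out, as were nuclei marked as doublets. Counts of 19708 genes seen in at least 5 nuclei were scaled to 10000, and 2000 variable genes without members, markers, ribosomal, mitochondrially encoded and pathway genes, 30 components and 20 neighbours gave clusters at resolution 0.8, with 0.5 within granulosa nuclei. A cluster took the name of a marker list with at least 3 markers at 10 CPM and 1 higher on the log2 scale and a mean of 0.5 (1.5 for cycling), and 137 of 142 markers were found. A cluster with a median depth under 0.4 of the library median stayed unnamed if no marker of that list was among its leading genes. A granulosa subcluster that shallow could not be named cumulus. Scrublet doublet scores were computed, and the nuclei with the 10% highest scores were removed as an alternative. UMIs were summed per goat and class with at least 20 nuclei, so one low-depth sum limits what it can show. edgeR 4.0.16 (TMM, filterByExpr, quasi-likelihood, two-sided, goat as a block between classes) was the test, with DESeq2 1.42.0 as an alternative, limma 3.58.1, R 4.3.3, Python 3.11.15, scanpy 1.11.5, numpy 2.4.6, scipy 1.17.1, pandas 2.3.3 and matplotlib 3.10.9. The scripts were tested on simulated data. Shares have exact (Clopper-Pearson) 95% intervals.

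Members and gene lists were chosen with earlier results of these data known. Named were the isoform genes, the 2 highest and 2 lowest called members of a class, the 2 most abundant of a complex, complex II and catalytic subunits, and at most 2 pathway genes per list and class called at a log2 fold change of at least 1. Members named for clusters 5 and 19, for class pairs or for breeds without a call were chosen after their values were seen. The values of 1 member are not reported here, though it stays in the counts and sums. Alternatives covered the tool, scaling, the filter on low counts, the mitochondrial limit, resolution, doublets, depth, class rule and each goat. None changed the limits of 2 SD on UMIs and genes.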

Additional observations from a re-analysis of the deposited data

Results flagged for a closer look

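Of 73 groups of 4 goats examined, 4 had 1 goat whose gap to the nearest other goat exceeded Dixon's 95% critical share of the range, where chance gives about 1 in 20. All 4 were Nubian 2. The summed members in lymphatic endothelial-like nuclei were at 1174 CPM in Nubian 2 and at 802, 859 and 862 CPM in the others. ATP5I in T or natural killer-like nuclei was at 63.6 CPM in Nubian 2 and at 14.4, 15.2 and 15.5 CPM in the others. In blood endothelial-like nuclei NDUFB10 was at 36.8 CPM against 11.4, 11.6 and 6.80 CPM, and NDUFS5 at 73.6 CPM against 13.6, 19.6 and 19.04 CPM.

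Nuclei outside the comparisons also held the members. The 3598 removed nuclei had 58275970 UMIs with 3885 CPM of members, against 167261302 UMIs with 1197 CPM in the 44734 kept nuclei. Much of the member UMIs thus lay outside every class, and no setting changed the limits of 2 SD. The 2488 nuclei removed for UMIs, genes or a doublet call but within the mitochondrial limit had a median of 18422.5 UMIs. They had 4012 CPM of members and 1.55% of UMIs on ribosomal protein genes, against 1197 CPM and 0.381% in kept nuclei. The deep ones among them were at 1761, 2999, 1493 and 9265 CPM in Du'an 1, Du'an 2, Nubian 1 and Nubian 2, so Nubian 2 stood far above the others. Their 6 macrophage markers summed to 1376 CPM against 128 CPM in kept nuclei. By at least 1 on the log2 scale, 6 of 6 macrophage and 5 of 6 epithelial markers were higher and 7 of 9 T or natural killer markers lower. By the same measure 4 of 9 cycling, 2 of 6 progenitor granulosa and 2 of 8 fibroblast markers were higher. So was 1 marker each of the ciliated, mast and theca lists. Lower were 3 of 8 smooth muscle and 2 of 7 stromal markers. The largest marker change was in STAR of the theca list, at 83.8 CPM against 3.87 CPM in kept nuclei. Marker values were pooled over goats. Unnamed cluster 4, with a median of 791 UMIs and IGF2, TFF3 and WFDC2 among its leading genes, had a mean of 5056 CPM and 4527, 5468, 3696 and 6534 CPM in Du'an 1, Du'an 2, Nubian 1 and Nubian 2, with a ribosomal share of 3.17% to 5.88%. This cluster had 4 of 6 epithelial markers up, with a mean of 2.35 on the log2 scale. It also held markers of other cell types. Over goats the 12 granulosa markers summed to 2137 to 4215 CPM and the 8 smooth muscle markers to 913 to 1983 CPM, against 4257 and 1044 CPM in kept nuclei. The cluster stayed unnamed because its median depth was 0.367 of the library median and no epithelial marker was among its leading genes.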

How the results depend on the processing

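Against 130 higher calls over classes, 11 other settings gave 93 to 134 and leaving out 1 goat gave 103 to 129. The 55 lower calls became 79 with DESeq2, 65 with classes from marker UMIs, 64 with no factors beyond library totals, 37 to 52 in 7 other settings, 11 with nuclei thinned to 1000 UMIs, and 22 to 39 without 1 goat (22 without Nubian 2, 27 without Nubian 1, 34 without Du'an 1), with fewer samples tested. How many of all genes were called under these settings is not given, so these counts have no background to be read against. Leaving out clusters 5 and 19, chosen after the data were seen, gave 64 higher, 27 lower and 0 breed calls. The 0 breed calls became 6 with DESeq2, 16 with no filter on low counts, and 0 to 25 without 1 goat (25 without Nubian 1). All of these breed calls were in T or natural killer-like sums and higher in Nubian goats. The shares of all genes called there under these settings are not given, so these breed counts have no background to be read against. Without 1 goat, its breed is also left with 1 goat and no spread of its own. Apart from the filter and the goats left out, the cause was not tested. For 36 named results under 9 settings (DESeq2, clusters 5 and 19 left out, mitochondrially encoded genes left out, resolutions of 0.4 and 1.2 and each goat left out), 259 of 318 values kept direction and call, 59 lost the call and 0 turned direction. Classes from marker UMIs, thinned nuclei, doublet removal and the limit of 5% were among the settings not counted here. With classes from marker UMIs, NDUFS4 in lymphatic endothelial-like sums did turn direction, to 0.29. The median member log2 fold change in epithelial-like sums turned as well, from -0.64 to 0.70.

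The fit with the replicate number as a block between breeds also called 0 members. Goats with the same number did not deviate together (r from -0.236 to 0.253, median -0.0626, over 11 classes), so the number only names a goat. Low counts limit small classes such as theca-like and epithelial-like nuclei.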
